A study of Rattus norvegicus with 8 samples.

Results

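Metabotropic glutamate receptors were followed through 6 genes, Grm2, Grm3, Grm4, Grm5, Grm7 and Grm8, in the basolateral amygdala of rats. The genes were chosen by symbol, 6 of the 14217 that the array measures on their own. Every probe set annotated to one of these symbols alone was taken, which gave 9 probe sets of the 31042 on the array, or of the 20826 annotated to a single gene. RNA came from the lateral and basal nuclei, cut out by laser microdissection on the operated side, and was measured on 8 Affymetrix rat expression arrays in 4 groups of 2. Control rats had been operated and not stimulated, whereas epileptogenic rats had been stimulated in the amygdala, had responded with a strong status epilepticus (a prolonged seizure), and had shown no spontaneous seizures. Each arm was split by training on day 8. Paired rats received 2 trials in which a tone (75 dB, 20 s) ended together with a footshock (1.5 mA, 1 s), and unpaired rats received 2 trials with the shock first and the tone after it. The groups were thus unpaired and paired controls, and unpaired and paired epileptogenic rats. All of them had been habituated to the apparatus and had received shocks, and tissue was taken 3 h after training, so that no group shows the untrained amygdala. Each array held amplified RNA pooled from 2 rats, 16 rats in all, and is named by its group and its replicate letter, A or B. Strain, sex and age are not given in the sources used here.

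These receptors are G protein-coupled receptors for glutamate that adjust the strength of synapses rather than carry the fast current. Group I, here Grm5, couples through Gq to phospholipase C and lies mostly on the postsynaptic side, where Homer proteins tether it. Group II (Grm2 and Grm3) and group III (Grm4, Grm7 and Grm8) couple through Gi/o proteins, which inhibit adenylyl cyclase, and many of them sit on axon terminals, where they reduce transmitter release. In the lateral amygdala of rodents, signalling by the receptor that Grm5 encodes is known to take part in the acquisition of conditioned fear.

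RefSeq promoter windows (GRCr8, 250 bases before to 50 after the gene start) were available for 3 of the 6 genes, and are shown because they give the start regions of the group I receptor with the clearest separation of the groups and of a pair of group III receptors. Capitals mark matches, on either strand, to GGGCGG, the GC box. They would also mark TGACG, the core of a cAMP response element, and the E-box CACGTG, as well as TATAAA, known as the TATA box. None of these had a match in the 3 windows.
Grm5, chr1:150733503-150733802, plus strand: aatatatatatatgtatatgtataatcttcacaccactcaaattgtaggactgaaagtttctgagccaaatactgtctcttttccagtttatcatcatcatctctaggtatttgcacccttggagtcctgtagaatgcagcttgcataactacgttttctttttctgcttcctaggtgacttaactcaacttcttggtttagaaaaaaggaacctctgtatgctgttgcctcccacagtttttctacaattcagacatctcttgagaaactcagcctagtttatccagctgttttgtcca
Grm7, chr4:145286476-145286775, plus strand: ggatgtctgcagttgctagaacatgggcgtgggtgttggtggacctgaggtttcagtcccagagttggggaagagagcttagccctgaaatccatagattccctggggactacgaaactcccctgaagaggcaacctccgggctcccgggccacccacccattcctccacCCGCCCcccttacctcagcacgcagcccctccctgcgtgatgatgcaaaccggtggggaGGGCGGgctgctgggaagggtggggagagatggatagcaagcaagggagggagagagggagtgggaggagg
Grm8, chr4:57687457-57687756, minus strand: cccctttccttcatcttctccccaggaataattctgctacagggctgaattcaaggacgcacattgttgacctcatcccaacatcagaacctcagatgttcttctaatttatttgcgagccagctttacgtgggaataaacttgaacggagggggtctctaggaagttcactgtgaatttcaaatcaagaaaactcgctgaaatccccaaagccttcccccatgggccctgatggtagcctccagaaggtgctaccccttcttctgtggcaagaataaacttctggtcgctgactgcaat
The Grm5 window had 1 CG dinucleotide and a GC content of 37.3%, against 9 and 62.0% for Grm7 and 6 and 47.3% for Grm8. Over all 33469 RefSeq windows of this length the median was 7 CG dinucleotides, and 13.6% had as few as Grm5. Only Grm7 held a GC box, with 2 matches, and 33.1% of all windows held at least 1. TGACG stood in 21.2% of all windows, CACGTG in 6.42% and TATAAA in 14.2%. These are letter matches and say nothing of binding by any factor.

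Signals are MAS5 intensities on a linear scale, which serve to compare arrays for 1 probe set and not probe sets with each other. Arrays had median signals of 29.0 to 43.2. Testing was limited to the 18625 probe sets whose log2 signal, averaged over the arrays, exceeded the 40th percentile (equal to a signal of 20.3). Of the 9 receptor probe sets 6 passed this filter, covering Grm2, Grm3, Grm5 and Grm8, while Grm4, Grm7 and the dimmer probe set of Grm5 did not. Replicate letters marked arrays that deviated together (correlations of like letters between groups were 0.321 to 0.407 across probe sets). The sources name the letters only as replicates, so the pairing rests on these same data. Results are also given with the letter as a block or within a letter where these differ. The number of arrays limits the precision throughout.

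Setting the 4 epileptogenic against the 4 control arrays asks how these transcripts stood after status epilepticus, averaged over both trainings. Grm5 had the lowest adjusted p of the family, with all epileptogenic signals below all control signals, and Grm2 had lower means that overlapped. Grm3 and the 3 Grm8 probe sets overlapped between the arms. None of the 4 tested receptor genes passed at an adjusted p of 0.05, where 3.63% of all tested probe sets did (1.21% to 2.34% when any 1 array was left out). At an unadjusted p of 0.05 only Grm5 passed, as did 18.4% of all tested probe sets. With the letter as a block, Grm5 fell (1 of 4 genes), as did 8.65% of all tested probe sets.

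Grm5 encodes the group I receptor mGlu5. Its bright probe set (1393665_at) had signals of 827 (A) and 694 (B) in control unpaired, 556 and 744 in control paired, 479 and 329 in epileptogenic unpaired, and 494 and 434 in epileptogenic paired arrays. The lowest control array (paired A) thus lay above the highest epileptogenic array (paired A), and epileptogenic unpaired B was the lowest of all. Of all tested probe sets, 7.77% had every epileptogenic signal below every control signal. On the log2 scale epileptogenic arrays averaged 8.74 ± 0.27 (SD, n = 4) and control arrays 9.45 ± 0.24 (SD, n = 4), a log2 difference of -0.70 ± 0.20 (SE) or 1.63-fold lower. Its adjusted p in limma was 0.101 without and 0.0168 with the letter as a block. The 95% interval of the difference was -1.16 to -0.25 on the log2 scale, while the median difference of all tested probe sets was -0.11. The A arrays alone gave a log2 difference of -0.48 and the B arrays alone one of -0.93.

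The order of the 4 group means of Grm5 was control unpaired (mean signal 761), control paired (650.2), epileptogenic paired (464) and epileptogenic unpaired (404). The pair of control groups overlapped, and so did the pair of epileptogenic groups. Only the step between control paired and epileptogenic paired separated neighbouring groups. After unpaired training the epileptogenic-minus-control log2 difference was -0.93 ± 0.29 (SE; adjusted p = 0.230, and 0.0395 with the letter as a block), where 0.317% of all tested probe sets passed without and 7.01% with the block (3.61% as lower). After paired training the log2 difference was -0.47 ± 0.29 (SE; adjusted p = 0.659), where 0.532% of all tested probe sets passed, or 4.62% with the block. The test of the difference between the trainings gave a log2 value of 0.46 ± 0.40 (SE; interaction, adjusted p = 1.00), so a different size after the 2 trainings was not detectable. No tested probe set passed the interaction test (0%, limma), and 274 did at an unadjusted p of 0.05, none of them of a receptor. The second Grm5 probe set (1369355_at) ran from 1.03 to 11.4 over the 8 arrays, below the filter, and its highest signals came from epileptogenic paired A and control unpaired B.

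Grm2, a group II receptor found mainly on axon terminals, had signals of 53.4 (A) and 27.5 (B) in control unpaired, 47.8 and 26.7 in control paired, 27.5 and 21.7 in epileptogenic unpaired, and 29.3 and 12.0 in epileptogenic paired arrays. The arms overlapped, since both control B arrays lay at about the level of the epileptogenic A arrays. Epileptogenic arrays averaged a log2 signal of 4.42 ± 0.58 (SD, n = 4) and control arrays one of 5.21 ± 0.52 (SD, n = 4), a log2 difference of -0.79 ± 0.44 (SE; adjusted p = 0.386, 0.136 with the letter as a block). Its 95% interval, -1.79 to 0.21, includes differences larger than that of Grm5. Within the letters the log2 difference was -0.83 (A) and -0.75 (B), and within the trainings -0.65 ± 0.63 (SE) after unpaired and -0.93 ± 0.63 (SE) after paired training. Single arrays moved both, to -0.17 without control unpaired A and -1.13 without control unpaired B after unpaired training, and to -0.29 without epileptogenic paired B, -0.51 without control paired A and -1.57 without epileptogenic paired A after paired training. Neighbouring groups in the order control unpaired, control paired, epileptogenic unpaired, epileptogenic paired all overlapped.

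Grm3, the other group II receptor, which astrocytes express as well as neurons, had signals of 226 (A) and 473 (B) in control unpaired, 265 and 377 in control paired, 240 and 335 in epileptogenic unpaired, and 275 and 340 in epileptogenic paired arrays. The arrays separated by letter and not by group, with all 4 B arrays above all 4 A arrays. Of all tested probe sets, 8.13% had every B signal above every A signal. The B arrays averaged a log2 signal of 8.56 ± 0.23 (SD, n = 4) and the A arrays one of 7.97 ± 0.13 (SD, n = 4). Between epileptogenic and control arrays the log2 difference was -0.13 ± 0.27 (SE; 95% interval -0.74 to 0.49, adjusted p = 0.854), and all 4 groups overlapped. Its sign turned within letter A (0.072), without control unpaired B (0.14) and without control paired B (0.0016).

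Grm2 ran the other way between the letters. Its B array was below its A array in all 4 groups, with mean log2 signals of 4.39 ± 0.55 (SD, n = 4) in B and 5.24 ± 0.49 (SD, n = 4) in A, although the letters overlapped. Over all tested probe sets the median B-minus-A log2 difference was -0.04, and 53.2% had a lower mean in B. The share with B below A in all 4 groups was not computed. Some marker sums moved with the letters too, while those of oligodendrocyte, oligodendrocyte precursor and endothelial markers kept no single order of the letters. The summed signal of 5 excitatory neuron markers of the basolateral amygdala was higher in B than in A in each of the 4 groups, and so was that of 8 microglia and macrophage markers. The sums of 7 astrocyte markers, 7 general neuron markers, 6 interneuron markers and 6 markers of striatal and central amygdala neurons were higher in A in each group. The astrocyte sum, for example, was 24383 in A and 15585 in B of the control unpaired arrays, opposite to Grm3. In epileptogenic unpaired arrays the striatal and central sum was 3919 in A and 1334 in B. The part of these marker levels in the values of Grm2 and Grm3 was not tested.

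**Figure D1:**
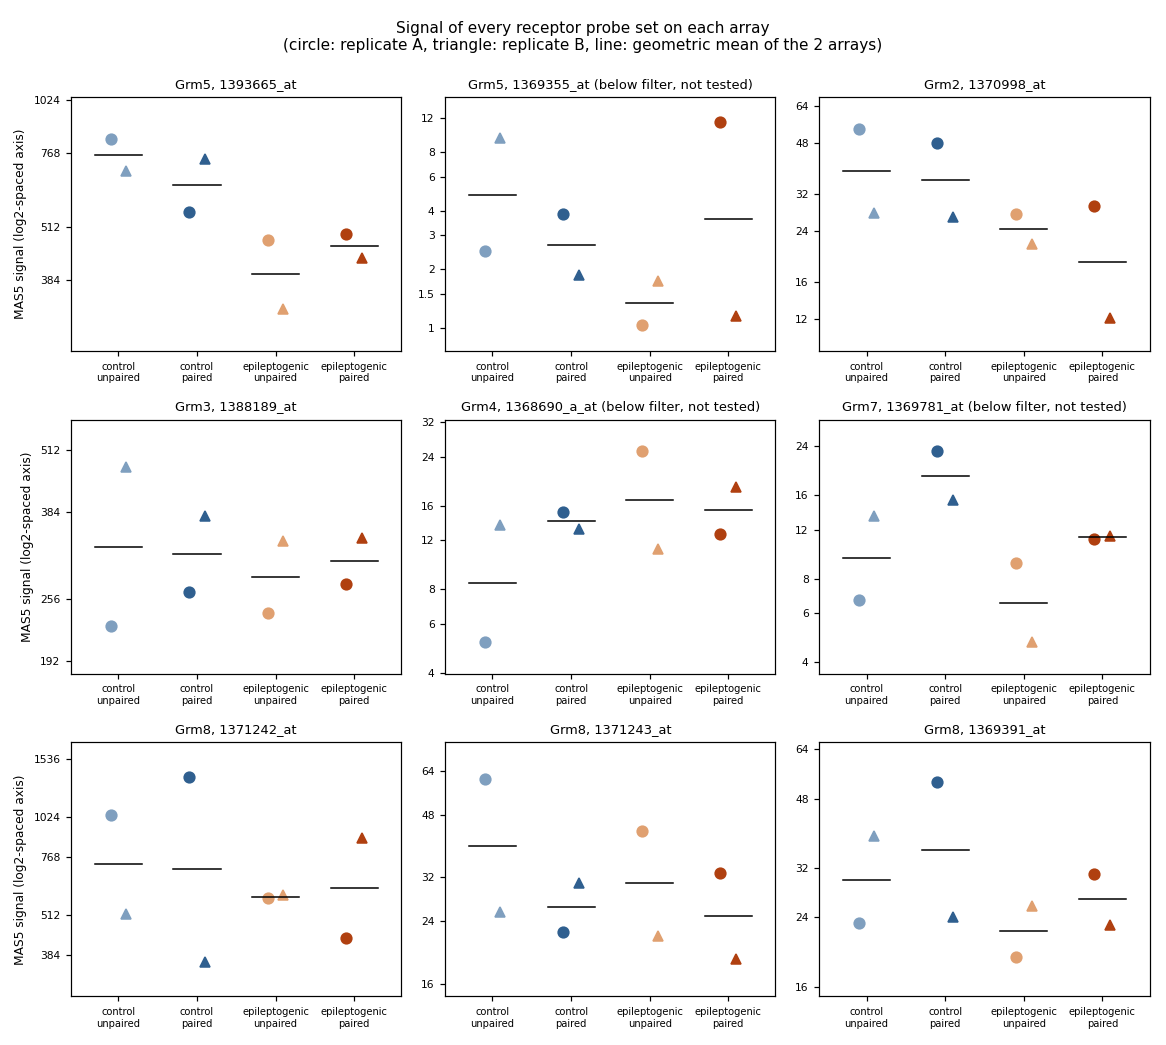
MAS5 signal (log2-spaced axis, a scale of its own in each panel) of the 9 receptor probe sets in the 4 groups. Circles are replicate A, triangles replicate B, and lines the geometric mean of the 2 arrays. Grm5 (1393665_at) separates epileptogenic from control arrays, Grm3 separates the letters, and Grm8 (1371242_at) shows opposite orders of the arms in the 2 letters.

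Among group III receptors only Grm8 was bright enough to be tested, and its 3 probe sets did not share one pattern. Grm8 encodes a presynaptic receptor that limits glutamate release. The brightest probe set (1371242_at) had signals of 1038 (A) and 515 (B) in control unpaired, 1353 and 367 in control paired, 575 and 587 in epileptogenic unpaired, and 434 and 879 in epileptogenic paired arrays. In letter A both epileptogenic signals lay below both control signals, and in letter B both lay above them. Letter A gave a log2 difference of -1.25 and letter B one of 0.72, while all arrays together gave -0.26 ± 0.42 (SE; adjusted p = 0.795). Of all tested probe sets, 4.07% had arms that separated in opposite directions in the 2 letters, as this one did. Within letter A alone 34.6% had epileptogenic signals below control signals, and within letter B alone 22.8% had them above. Fitted within 1 letter, with 1 residual degree of freedom, it passed as lower in A (adjusted p = 0.0399), as did 0.999% of all tested probe sets, and as higher in B (adjusted p = 0.00580), as did 8.37%. Grm5 passed as lower within letter B (adjusted p = 0.000200), as did 7.78%. For neither gene was the difference between the letters tested.

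The other Grm8 probe sets did not repeat this order, but they were dim, with mean signals of 32.0 (1371243_at) and 29.7 (1369391_at). In 1371243_at the signals were 60.4 (A) and 25.5 (B) in control unpaired, 22.5 and 30.8 in control paired, 43.3 and 21.8 in epileptogenic unpaired, and 33.0 and 18.7 in epileptogenic paired arrays. In 1369391_at they were 23.2 and 38.6, 52.8 and 24.0, 19.1 and 25.7, and 31.0 and 23.0 in the same order. Both overlapped between the arms, with log2 differences of -0.22 ± 0.44 (SE; adjusted p = 0.840) and -0.43 ± 0.41 (SE; adjusted p = 0.631). The highest array was control paired A in 1371242_at and 1369391_at but control unpaired A in 1371243_at. The mean of the 3 probe sets gave a log2 difference of -0.30 (adjusted p = 0.594).

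Grm4 and Grm7, the other group III receptors, lay below the filter, and their values are given without the main test. Grm4 had signals of 5.18 (A) and 13.7 (B) in control unpaired, 15.1 and 13.1 in control paired, 25.1 and 11.2 in epileptogenic unpaired, and 12.7 and 18.7 in epileptogenic paired arrays. The arms overlapped, and the log2 difference was 0.56 (adjusted p = 0.762 in limma without the filter). Grm7, whose product sits in the active zone of terminals, had signals of 6.70 and 13.5, 23.1 and 15.4, 9.08 and 4.71, and 11.1 and 11.4 in the same order. Its arms overlapped too, with a log2 difference of -0.64 between epileptogenic and control arrays (adjusted p = 0.725 without the filter).

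The comparison of paired with unpaired training addresses whether coupling the tone to the shock left a mark on these transcripts 3 h later. None of the 4 tested genes passed in any training comparison, nor did any of the 18625 tested probe sets (0.00%, limma, with or without the letter as a block). At an unadjusted p of 0.05, 214 of all tested probe sets passed, or 1.15%, and no receptor probe set was among them. The log2 differences of the 6 tested receptor probe sets lay between -0.44 and 0.26, with 95% intervals reaching from -1.42 to 1.17, and Grm5 had -0.01 ± 0.20 (SE; 95% interval -0.46 to 0.45). A change of 1 log2 unit lies outside the intervals of Grm5, Grm3 and Grm8 1371242_at, but inside those of Grm2 and the other 2 Grm8 probe sets.

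Grm7 gave the largest paired-minus-unpaired log2 difference of the 9 probe sets, 0.88, from dim signals. Both paired arrays lay above both unpaired arrays in control rats (15.4 and 23.1 against 6.70 and 13.5) and in epileptogenic rats (11.1 and 11.4 against 4.71 and 9.08), although the 4 paired and 4 unpaired arrays overlapped. Such a separation upward was shown by 8.75% of tested probe sets in control and by 11.0% in epileptogenic rats. The share that separated in both was not computed, and these are probe sets above the filter, which Grm7 was not. Without the filter its adjusted p in limma was 1.00 and its SE 0.62.

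**Figure D2:**
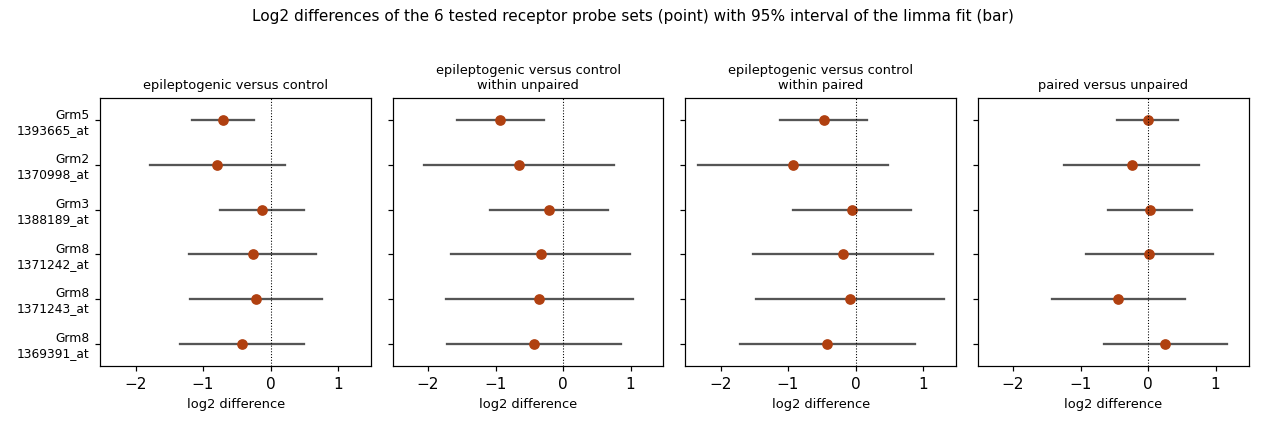
Log2 differences (points) with 95% intervals of the limma fit (bars) for the 6 tested receptor probe sets in 4 comparisons, all on one axis. The intervals of Grm5 exclude 0 over both trainings (-1.16 to -0.25) and after unpaired training, and all other intervals include 0.

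Genes that work with the receptors were read from 5 lists holding 60 genes, of which 54 were on the array and 49 were tested. The lists were chosen with earlier results of these data known, so shares and directions within them are not independent of the choice. Between epileptogenic and control arrays, 2 of these 49 rose and 0 fell, or 4.08%, a share near the 3.63% of all tested probe sets (2.81% higher and 0.827% lower). With the letter as a block 4 rose and 14 fell, or 36.7%, against 16.2% of all tested probe sets (7.58% higher and 8.65% lower). Among the 49, 33 had a negative log2 difference and the median was -0.39, against 60.2% negative and a median of -0.11 over all tested probe sets.

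In the Gq pathway used by mGlu5, 1 of 8 tested genes rose and 0 fell (median log2 difference -0.07). Plcb3, a phospholipase C beta gene, passed as higher (adjusted p = 0.0279), at log2 levels of 5.80 ± 0.87 (SD, n = 4) in the epileptogenic arm and 3.52 ± 0.43 (SD, n = 4) in the control arm. The control level lay under the filter (4.35), so the gene entered the test only through its epileptogenic arrays, and its fold is not a measured one. Without it 1 of 48 partner genes rose (2.08%), and with the block 3 rose and 14 fell (35.4%). Plcb3 lost the call in 7 of the 8 fits that left out 1 array (adjusted p of 0.0255 to 0.104). Plcb1, the phospholipase C beta gene with the next smallest p, had -0.69 ± 0.19 (log2, SE; adjusted p = 0.0839, 0.0118 with the letter as a block). Gnaq, the G protein alpha subunit of this pathway, lay below the filter, at a log2 signal of 2.57 ± 1.49 (SD, n = 4) in epileptogenic arrays against 3.37 ± 0.92 (SD, n = 4) in controls.

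Among postsynaptic scaffolds of group I receptors, listed together with a kinase, 0 of 8 tested genes passed. All 8 had negative log2 differences, from -0.93 to -0.37 (median -0.68). With the letter as a block 3 of 8 fell, as did 8.65% of all tested probe sets. Dlgap1, which links the postsynaptic density to Shank proteins, had -0.93 ± 0.25 (log2, SE; adjusted p = 0.0797, 0.00126 with the block), and Camk2a, a kinase of the postsynaptic density, -0.87 ± 0.36 (adjusted p = 0.232, 0.00526 with the block). Homer1, which binds mGlu5 directly, had -0.37 ± 0.27 (adjusted p = 0.512).

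The Gi/o proteins and adenylyl cyclases through which group II and III receptors act had no call among 11 tested genes (median log2 difference -0.50). With the letter as a block 1 rose and 2 fell, where 7.58% of all tested probe sets rose and 8.65% fell. Gnb1, a G protein beta subunit, had -0.50 ± 0.17 (log2, SE; adjusted p = 0.157, 0.0133 with the block) and Adcy3, an adenylyl cyclase, -0.50 ± 0.22 (adjusted p = 0.264). Among regulators and trans-synaptic partners 0 of 11 passed (median -0.23) and 3 fell with the block. Rgs7 and Rgs4, which speed the shut-off of G proteins, had -0.62 ± 0.18 (adjusted p = 0.0961, 0.00805 with the block) and -0.74 ± 0.22 (adjusted p = 0.105, 0.0142 with the block).

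Genes that supply or clear the receptors' ligands differed in direction. Of 11 tested genes, 1 rose and 0 fell, and 2 rose and 4 fell with the block (median log2 difference -0.15). The block called 7.58% of all tested probe sets higher and 8.65% lower. Glul, the astrocytic enzyme that turns glutamate into glutamine, rose by 0.98 ± 0.18 (log2, SE; adjusted p = 0.0199), and kept the call in 2 of the 8 fits that left out 1 array (adjusted p of 0.0185 to 0.0734). The glutamate transporter genes of astrocytes had 0.36 ± 0.37 (Slc1a2, adjusted p = 0.654) and 0.06 ± 0.22 (Slc1a3, adjusted p = 0.916), the latter with a sign that turned in 3 of the 8 fits that left out 1 array. The vesicular glutamate transporter genes had -1.13 ± 0.32 (Slc17a6, adjusted p = 0.0951, 0.0214 with the block) and -0.85 ± 0.44 (Slc17a7, adjusted p = 0.341). In the training comparisons and the interaction 0 of the 49 partner genes passed, with or without the block.

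**Figure D3:**
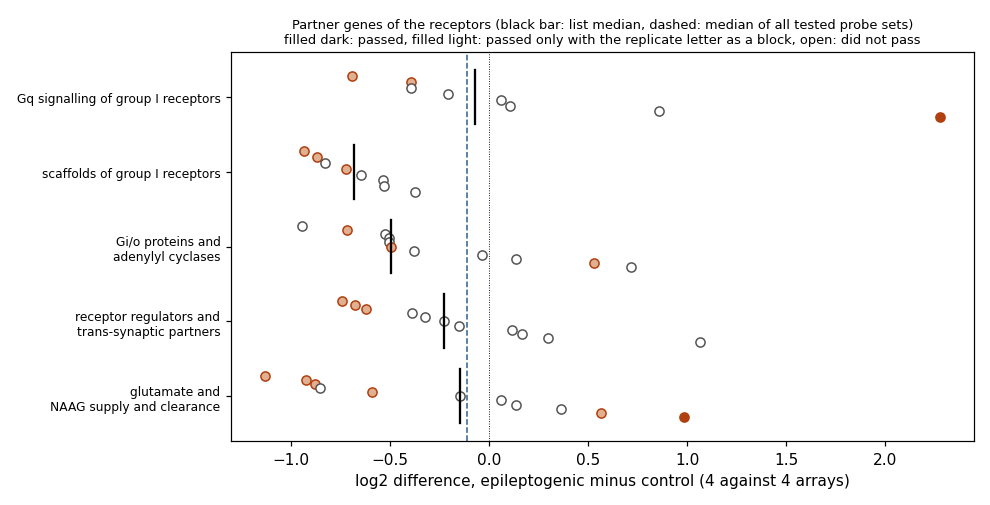
Epileptogenic-minus-control log2 differences of the 49 tested partner genes in 5 lists, 4 against 4 arrays, 1 point per gene. Black bars are list medians and the dashed line is the median of all tested probe sets (-0.11). Scaffolds of group I receptors lie to the left of the dashed line without exception, and Plcb3 and Glul are the 2 genes that passed.

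Markers of cell types differed between the arms beside these values. The lists are not separate from the genes above. Glul, Slc1a2 and Slc1a3 are also among the astrocyte markers, and Slc17a7 is among the excitatory neuron markers. Of 6 tested general neuron markers 0 passed (4 fell with the letter as a block), with log2 differences between -0.94 and -0.28, a range that holds the -0.70 of Grm5. The summed signal of the list was 9086 to 13253 in epileptogenic and 12584 to 17635 in control arrays. Of 5 excitatory neuron markers 3 fell (4 with the block), and their sum was 1758 to 2208 against 2614 to 4255 in control arrays, with no overlap. Of 7 tested microglia and macrophage markers 6 rose, and 1 had a negative log2 difference of -0.40. The summed signal of this list was 3126 to 5651 against 591 to 920 in control arrays. Of 7 astrocyte markers 3 rose, among them the filament gene Gfap by 2.83 ± 0.29 (log2, SE; adjusted p = 0.00237), the sum being 21457 to 26634 against 14355 to 24383. None passed among 4 interneuron, 5 oligodendrocyte, 3 oligodendrocyte precursor, 5 endothelial, and 6 striatal and central amygdala markers that were tested, and the sums of these lists overlapped between the arms. With the letter as a block 1 oligodendrocyte, 1 precursor and 1 endothelial marker rose. Over all tested probe sets 2.81% passed as higher and 0.827% as lower, against 7.58% and 8.65% with the block. The interneuron markers Pvalb and Sst, the precursor marker Olig2, the microglial Itgam and the neuronal Syt1 lay below the filter. In such tissue samples fewer cells of a type and less RNA per cell cannot be told apart, and the part of cell composition in the Grm5 value was not tested.

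Genes whose profile over the 8 arrays lay closest to each tested receptor, at its brightest probe set, were sought among 10363 named genes. Closeness was the root mean square difference of log2 signals centred on each gene's own mean. For Grm5 the closest were C2cd2l at 0.10 log2 units, Negr1 at 0.12 and Prrt1 at 0.12, where the median gene lay at 0.53. Negr1, a neuronal adhesion gene, fell (log2 difference -0.83, adjusted p = 0.0251), while C2cd2l and Prrt1 had -0.75 and -0.64 and did not pass (adjusted p = 0.0736 and 0.176). Since these 3 genes were picked for closeness to Grm5 on the same arrays, differences near its own follow from the choice. For Grm3 the closest were Med6, Csnk2a1 and Rnf6 at 0.08 to 0.11, and for Grm2 Haghl, Mcts2 and Iqub at 0.14 to 0.20. For Grm8 (1371242_at) the closest genes, Fads3, Pank4 and Rita1, were at 0.25 to 0.27, farther than for the other 3 receptors. These profiles share arrays, letters and scaling, and closeness is given as a description only.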

How the data were processed

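RNA of 8 pools of microdissected basolateral amygdala was measured on single-colour Affymetrix arrays. The authors deposited 1 intensity per probe set and array, on a linear scale, made with MAS5 per the submitters' processing notes. The version, scaling target and detection calls are not given in the sources used here. From there, log2 was taken without another normalization, 57 control probe sets were left out, and probe sets above the 40th percentile of mean log2 signal (4.35) entered limma (version 3.58.1, R 4.3.3), one mean per group over all 8 arrays, with an intensity trend, two-sided tests and Benjamini-Hochberg adjustment over 18625 probe sets at 0.05. With 4 residual degrees of freedom (3 with the letter as a block, 1 within a letter), the spread is largely shared across probe sets. The fit without the block was tried on simulated data with independent noise and no letter effect. That trial does not bear on the fit with the block.

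Partner and marker genes were represented by their brightest probe set, and all receptor probe sets are given. Gene names come from the platform's annotation (20826 probe sets with 1 symbol, 436 with several). Partner and marker lists were read by counts and medians, without set tests. Named were all receptors, the 2 partner genes per list with the smallest p (up to 4 where they passed), Homer1, Gnaq, Slc1a2, Slc1a3, Slc17a7, Gfap and the 3 closest profiles per receptor. The receptors and all lists were chosen with earlier results of these data known. Alternatives tried were median centring, quantile normalization, an offset of 16 before the logarithm, other filters, no trend, array weights, the letter as a block or within letters, only the arrays of a comparison, averaging the probe sets of a gene, and omitting each array in turn.

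The letters were taken as a pairing because like letters deviated together in all 6 pairs of groups (0.321 to 0.407 across tested probe sets). The sample titles do not say what arrays of a letter share. The pairing thus rests on correlations in the same data to which the block is fitted.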

Additional observations from a re-analysis of the deposited data

Results flagged for a closer look

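In Grm4 (1368690_a_at), control unpaired A lay far below the other 3 control arrays, with a log2 signal of 2.37 (a signal of 5.18 against 13.1 to 15.1). The gap to the nearest control array was 0.869 of the control range. It was the only 1 of 36 such checks (9 receptor probe sets in the control, epileptogenic, paired and unpaired arrays) to stand apart, where chance flags about 1 in 20, and the probe set lies below the filter.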

How the results depend on the processing

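With the letter as a replicate block, 1 receptor gene was lower between epileptogenic and control arrays and 1 after unpaired training (Grm5 in both, 0 without the block). The block also moved the partner genes from 2 higher and 0 lower to 4 higher and 14 lower, and it changed no other receptor call. Within letter A 1 receptor gene was lower (Grm8) and 0 partner genes were higher, where 2.97% of all tested probe sets passed. Within letter B 1 receptor was lower (Grm5) and 1 higher (Grm8), with 5 partner genes higher and 16 lower, where 16.1% of all tested probe sets passed. These fits have 1 residual degree of freedom, so their calls rest on the spread shared across probe sets. The partner genes that rose numbered 1 with median centring, with the 60th percentile filter, without the intensity trend and, as chosen after seeing the data, with Plcb3 left out. Leaving out 1 array gave 0 to 1 partner genes higher and 0 to 1 lower, and 0 receptor calls in each of the 7 comparisons.

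Grm5 kept a negative epileptogenic-minus-control log2 difference in all 18 alternatives, from -0.93 to -0.48, and passed in 2 of them, the block and letter B (adjusted p 0.000200 to 0.369). Grm2 stayed between -1.11 and -0.47 in 17 alternatives and never passed (adjusted p 0.136 to 0.679). Signs turned in Grm3 (0.072 within letter A, -0.39 to 0.14 without single arrays), Grm8 1371242_at (0.72 within letter B, -0.73 to 0.21 without single arrays), Grm8 1371243_at (0.037 within letter A, -0.53 to 0.094) and Slc1a3 (-0.042 within letter B, -0.12 to 0.25); the cause was not tested. Of 506 further values of the receptors in the other comparisons, 69 changed sign and 0 passed. Counts over all tested probe sets between the arms were 389 with median centring, 330 without the trend and 3022 with the block, against 677. Leaving out any 1 array gave 225 (without epileptogenic unpaired B) to 436 (without epileptogenic unpaired A). Dim signal limits Grm4, Grm7 and the second Grm5 probe set, which lay below the filter. It also limits Grm2, Grm8 1371243_at and Grm8 1369391_at, which lay not far above it (percentiles 47.1, 48.5 and 47.2 of mean log2 signal).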
